A study of Homo sapiens with 6 samples.

Results

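The 35 genes described here encode the proteins that bring glucose into the cell, break it down to pyruvate, make or move lactate, pass pyruvate to the pyruvate dehydrogenase complex, and run the pentose phosphate pathway. They were chosen by name as a list of enzymes, transporters and regulators of these routes. No measured value entered the rule, but earlier results of these data were known when the list was made. Each was found by its GENCODE release 29 symbol, and all 35 were among the 58780 human genes in the deposited tables. All 35 also passed the filter on low counts that left 19725 genes to be tested.

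The RNA came from HCT116, a human colorectal carcinoma cell line, in a series on networks around nuclear speckles. There were 3 libraries of cells kept with auxin for 16 h and 3 of cells given only DMSO, the solvent. Auxin is a plant hormone that, in suitably engineered cells, leads to the loss of degron-tagged proteins, and the labels name neither such a protein nor any other allele for either group, so the state that both groups share is not known here. The labels call the 3 libraries of a group biological replicates, and p-values measure the spread between these libraries.

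Expected counts per library summed to between 270781969 and 546128199 in DMSO and between 234037969 and 625895062 after auxin, with replicate 1 the deepest of both groups. Markers of colorectal epithelium (EPCAM, KRT8, KRT18, KRT19, CDH1 and CLDN4) summed to 1766 to 2438 TPM in the DMSO libraries and 2238 to 2689 TPM in the auxin libraries. The leukocyte markers PTPRC and CD3E, the fibroblast marker LUM, the muscle markers MYH2 and CKM and the neuronal marker RBFOX3 were at 0 in all 6 libraries. Some other markers were not. The fibroblast marker COL1A1 was at 1.28 to 2.61 TPM in DMSO and 0.54 to 1.34 TPM after auxin. The red blood cell marker HBA1 was at 0.71 to 1.56 and 0.5 to 1.83 TPM. Over all libraries the muscle marker ACTA1 was at 0.01 to 0.06 TPM and the neuronal marker SNAP25 at 0.01 to 0.04 TPM. CD68, another leukocyte marker, which other cells express too, was at 39.5 to 65.7 TPM in DMSO and 10.7 to 19.1 TPM after auxin. In bulk RNA, fewer cells that express a gene and less of its RNA per cell cannot be told apart.

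Glycolysis splits glucose into pyruvate with a net yield of ATP and NADH. Its pace is set mainly where hexokinase traps glucose, where phosphofructokinase commits it, and where pyruvate kinase releases pyruvate, and many of its steps have several isozymes encoded by separate genes. Cancer cells of the colon, as many other tumours, often turn much of their pyruvate into lactate even in oxygen. The pentose phosphate pathway branches off after hexokinase, makes NADPH and ribose phosphate, and feeds carbon back into glycolysis through transketolase and transaldolase.

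Transcript levels differed over a wide range in the DMSO libraries. On the TPM scale, which corrects for transcript length, the highest mean levels over the DMSO libraries were those of GAPDH at 3175, PKM at 1032, ALDOA at 937, LDHA at 776, TPI1 at 688, ENO1 at 644 and LDHB at 636 TPM. The lowest were PFKFB1 at 0.127, ENO3 at 2.38 and SLC2A3 at 3.12 TPM. Among the 7 highest, GAPDH stood clear of PKM in every DMSO library, whereas the ranges of PKM and ALDOA, of LDHA and TPI1, of TPI1 and ENO1, and of ENO1 and LDHB overlapped. The 35 genes together held 11080, 9469 and 8973 TPM in DMSO replicates 1, 2 and 3 and 8673, 7911 and 8285 TPM after auxin. They made up 1.67 to 1.74% of the TPM of protein-coding genes in DMSO and 1.48 to 1.53% after auxin. Their summed share was lower in every auxin library. A sum follows its most abundant members, and not all of them fell. After auxin, mean TPM was 2496 for GAPDH, whose groups overlapped, 618 for ALDOA, 288 for TPI1 and 761 for LDHA. It was 1145 for PKM, 785 for ENO1 and 689 for LDHB, all above their DMSO means.

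After auxin, 14 of the 35 genes were called lower, 5 were called higher, and 16 were not called. Of those called lower, PFKL, ALDOA, SLC16A3 and TKT had the opposite sign relative to genes of like GC content (GC-corrected offsets, described below). Calls rest on edgeR's quasi-likelihood test at an adjusted p below 0.05, with Benjamini-Hochberg adjustment over all 19725 genes. Among all genes tested the background was 26.9% called lower and 25.4% called higher, 52.3% in all, and among protein-coding genes it was 33.4% and 27.8%. The members' shares were 40% lower and 14.3% higher. The fall reached 2-fold in 7 members, against 13.3% of all genes that were called lower by at least 2-fold, and 0 members rose by 2-fold. The CPM values (rounded counts relative to the TMM-scaled library size) of the 2 groups did not overlap in 15 members that were lower and 6 that were higher, where 60.3% of all genes did not overlap in either direction. The median log2 fold change was -0.13 over the members and 0.025 over all genes tested, and 0.049 and 0.033 with GC-corrected offsets.

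How many members rose depended on the model. The replicate numbers of the labels were taken to pair the libraries, and with the replicate number as a block 12 members were called higher and 16 lower, at backgrounds of 35.5% and 34.4%. No call was lost with the block. Without replicate 1 of both groups, which stood apart from the others, 9 members were called higher and 17 lower. The numbers over all genes also rose in that setting, to 5914 higher and 6219 lower, from 5010 and 5311. A second dependence was on base composition, since log2 fold changes fell with transcript GC content across the 14145 protein-coding genes with a GC value (Pearson's r -0.41, Spearman's rho -0.36, across genes that share the same 6 libraries). Over the 35 members r was -0.25 and rho -0.35. With offsets that removed this trend from each library (here called GC-corrected), 7 members were called higher and 9 lower, at backgrounds of 27.3% and 26.6%, and, of the called members, PFKL, ALDOA, SLC16A3 and TKT changed sign. The trend was fitted to each library's deviations from the gene means over both groups. It therefore also takes out any change after auxin that genes of like GC content share. GC-corrected values are relative to such genes, so a member can be called higher with them while its CPM is lower after auxin, as for TKT. With both the block and GC-corrected offsets, 15 were higher and 12 lower, at backgrounds of 36.1% and 33.4%. The 8 members called the same way in all 18 alternative settings were SLC2A1, PFKM, PFKFB2, PFKFB3, PFKFB4, TPI1, ENO2 and TALDO1, all of them lower.

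**Figure D1:**
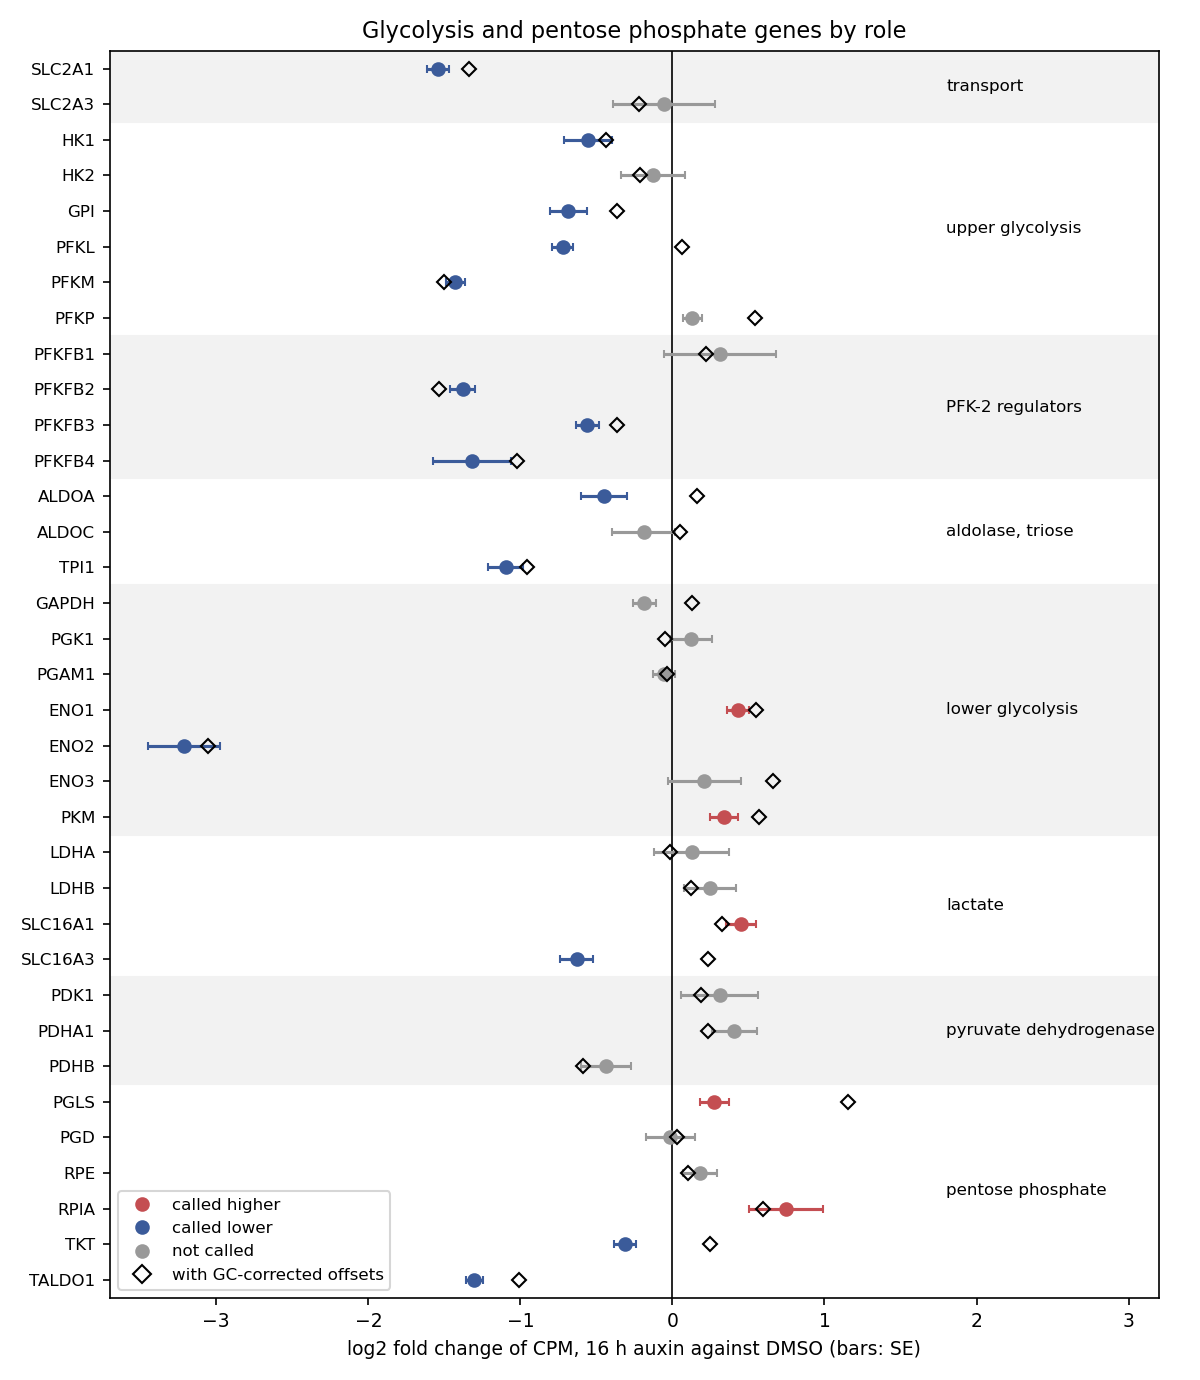
Log2 fold change of CPM (16 h auxin against DMSO, 3 libraries each, horizontal axis) of the 35 genes by role, with circles and SE bars from the edgeR fit and open diamonds for the fit with GC-corrected offsets. ENO2 lies farthest to the left at -3.21, and PFKL, ALDOA, ALDOC, GAPDH, SLC16A3, PGD and TKT have a circle left of 0 and a diamond right of 0, and PGK1 and LDHA the reverse.

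The main glucose transporter of most proliferating cells, GLUT1, is encoded by SLC2A1 (ENSG00000117394.21, chromosome 1, 42925375 to 42959176, minus strand). It was at 315, 358 and 315 CPM in DMSO replicates 1, 2 and 3 and 113, 117 and 110.0 CPM after auxin. All auxin libraries lay far below all DMSO libraries. The means were 329 ± 25.1 and 113 ± 3.5 CPM (SD, n = 3 each), and the log2 fold change was -1.54 with SE 0.073 and adjusted p 7.21e-06, or 2.91-fold lower. SLC2A3, which encodes the high-affinity neuronal-type transporter GLUT3, had a log2 fold change of -0.054 (adjusted p 0.909), and its groups overlapped. Its direction was not fixed, with 0.035 under the block and 0.067 under upper-quartile scaling. As a share of the TPM of both transporters, SLC2A3 took 1.93, 3.84 and 2.26% in DMSO and 7.21, 8.64 and 6.26% after auxin, without overlap, with SLC2A1 the more abundant in every library.

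The steps from glucose to fructose 1,6-bisphosphate differed from gene to gene. Of the 6 genes, 4 were called lower (HK1, GPI, PFKL and PFKM, with PFKL at 0.062 under GC-corrected offsets) and 0 higher. Among protein-coding genes 33.4% were called lower and 27.8% higher. PFKM, the muscle-type subunit of phosphofructokinase (ENSG00000152556.16, chromosome 12, 48105139 to 48146404, plus strand), was at 75.3, 85.5 and 83.8 CPM in DMSO replicates 1, 2 and 3 and 30.9, 29.7 and 30.3 CPM after auxin. The auxin libraries lay within a narrow band below the DMSO libraries. That gave a log2 fold change of -1.43 with SE 0.064 and adjusted p 6.12e-06. PFKL, the liver-type subunit (ENSG00000141959.16, chromosome 21, 44300051 to 44327376, plus strand), was at 29.2, 30.5 and 28.8 CPM in DMSO replicates 1, 2 and 3 and 19.1, 16.9 and 17.6 CPM after auxin. The groups were well separated on this scale. PFKL's log2 fold change was -0.72 with SE 0.069 and adjusted p 1.42e-04, but it was 0.062 (adjusted p 0.670) with GC-corrected offsets. The TPM-weighted mean GC content of PFKL transcripts is 63.4%. PFKP, the platelet-type subunit, had a log2 fold change of 0.13 (adjusted p 0.121) without overlap of the groups. PFKP passed the threshold with the block (adjusted p 0.00618) and with GC-corrected offsets, at 0.54 (adjusted p 0.00374).

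The subunit mixture of phosphofructokinase transcripts held relatively more PFKP after auxin. PFKM took 11.9, 13.6 and 13.2% of the TPM of the 3 subunit genes in DMSO replicates 1, 2 and 3 and 5.85, 5.36 and 4.70% after auxin. PFKP took 83.6, 82.0 and 82.6% and 91.4, 92.2 and 92.9%. In both cases the groups did not overlap, and PFKP was the leading subunit in all 6 libraries. PFKL went from 4.37% ± 0.16 to 2.53% ± 0.19 (n = 3 each, SD).

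GPI, the isomerase that turns glucose 6-phosphate into fructose 6-phosphate (ENSG00000105220.15, chromosome 19, 34359480 to 34402413, plus strand), was at 565, 739 and 660.3 CPM in DMSO replicates 1, 2 and 3 and 358, 437 and 427 CPM after auxin. Every auxin library was below every DMSO library. GPI had a log2 fold change of -0.68 with SE 0.12 and adjusted p 0.00264, and it stayed negative but did not pass the threshold with GC-corrected offsets, at -0.37 (adjusted p 0.102). Hexokinase 2, the inducible isozyme of many tumours, is encoded by HK2 (ENSG00000159399.9, chromosome 2, 74833981 to 74893359, plus strand). HK2 was at 119, 207 and 174 CPM in DMSO replicates 1, 2 and 3 and 124, 177 and 157 CPM after auxin. The groups overlapped, and replicate 1 was the lowest library of both. Its log2 fold change was -0.13 with SE 0.21 and adjusted p 0.652, with values above 0 without DMSO replicate 2 or without auxin replicate 1. With the block and GC-corrected offsets together HK2 was called lower, at -0.20 (adjusted p 0.00291). HK1, the widely expressed isozyme, had a log2 fold change of -0.56 (adjusted p 0.0218), and its call was lost with GC-corrected offsets, at -0.44 (adjusted p 0.0869), and without DMSO replicate 2, DMSO replicate 3 or auxin replicate 3. HK1 went from 48.3% ± 2.26 of hexokinase TPM in DMSO to 40.6% ± 1.09 after auxin (n = 3 each, SD), without overlap, and HK2 made up nearly all of the rest.

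Fructose 2,6-bisphosphate is the strongest activator of phosphofructokinase, and the bifunctional enzymes encoded by PFKFB1 to PFKFB4 make and remove it. Of these 4 genes, 3 were called lower and none was called higher, beside 33.4% and 27.8% of protein-coding genes. PFKFB2 (ENSG00000123836.14, chromosome 1, 207034366 to 207081024, plus strand), known from heart, was at 17.3, 19.8 and 18.8 CPM in DMSO replicates 1, 2 and 3 and 7.45, 7.25 and 6.80 CPM after auxin. The 3 auxin libraries were alike and lay at well under the lowest DMSO library. That gave a log2 fold change of -1.38 with SE 0.083 and adjusted p 1.92e-05. PFKFB4 (ENSG00000114268.11, chromosome 3, 48517684 to 48562015, minus strand), a hypoxia-responsive isozyme, was at 20.1, 40.0 and 27.0 CPM in DMSO replicates 1, 2 and 3 and 10.1, 14.3 and 10.5 CPM after auxin. DMSO replicate 2 was the highest, and the groups did not overlap. For PFKFB4 the log2 fold change was -1.32 with SE 0.26 and adjusted p 0.00429. PFKFB3 (ENSG00000170525.20, chromosome 10, 6144934 to 6254644, plus strand), the isozyme with the highest kinase activity relative to phosphatase activity, was at 52.2, 57.6 and 61.4 CPM in DMSO replicates 1, 2 and 3 and 36.8, 39.5 and 39.9 CPM after auxin. The groups were again separate. Its log2 fold change was -0.56 with SE 0.074 and adjusted p 6.58e-04. PFKFB1, the liver isozyme, had the fewest counts of all members, at 0.187 CPM with DMSO and 0.229 with auxin (means), with a log2 fold change of 0.31 (adjusted p 0.515) and a value below 0 without auxin replicate 1. PFKFB3 led the family's TPM with 54.9% ± 6.40 in DMSO and 64.6% ± 2.63 after auxin (n = 3 each, SD), without overlap. PFKFB2 shares 9132 bases with YOD1 on the opposite strand. YOD1 had 389% of the CPM of PFKFB2 and a log2 fold change of -0.093, and whether counting used the strand is not stated, so the part of YOD1 reads in this result was not tested.

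The aldolase and triose steps held 2 genes called lower, TPI1 and ALDOA, the latter with 0.16 under GC-corrected offsets, and 1 not called, ALDOC. Of protein-coding genes, 33.4% were called lower. Triose phosphate isomerase, which interconverts the 2 trioses that aldolase makes, is encoded by TPI1 (ENSG00000111669.14, chromosome 12, 6867119 to 6870948, plus strand). It was at 352, 446 and 422 CPM in DMSO replicates 1, 2 and 3 and 168, 201 and 201 CPM after auxin. The highest auxin library was far below the lowest DMSO library. Means were 407 ± 48.9 and 190.0 ± 19.2 CPM (SD, n = 3 each), with a log2 fold change of -1.10 with SE 0.11 and adjusted p 2.04e-04. Aldolase A, the main aldolase of muscle and of most tumours, is encoded by ALDOA (ENSG00000149925.18, chromosome 16, 30064164 to 30070457, plus strand). It was at 722, 1057 and 924 CPM in DMSO replicates 1, 2 and 3 and 578, 711 and 690.2 CPM after auxin. Auxin replicates 2 and 3 came close to DMSO replicate 1, but no auxin library reached it. The log2 fold change of ALDOA was -0.45 with SE 0.15 and adjusted p 0.0386 and turned to 0.16 (adjusted p 0.572) with GC-corrected offsets, and with the block added to them ALDOA was called higher, at 0.18 (adjusted p 0.00293). Its call was also lost with upper-quartile scaling and without any 1 of 5 libraries, DMSO replicate 1 being the exception. ALDOC, the brain-type aldolase, was at a log2 fold change of -0.19 (adjusted p 0.474) with overlapping groups, at 0.049 with GC-corrected offsets, and above 0 without DMSO replicate 2.

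**Figure D2:**
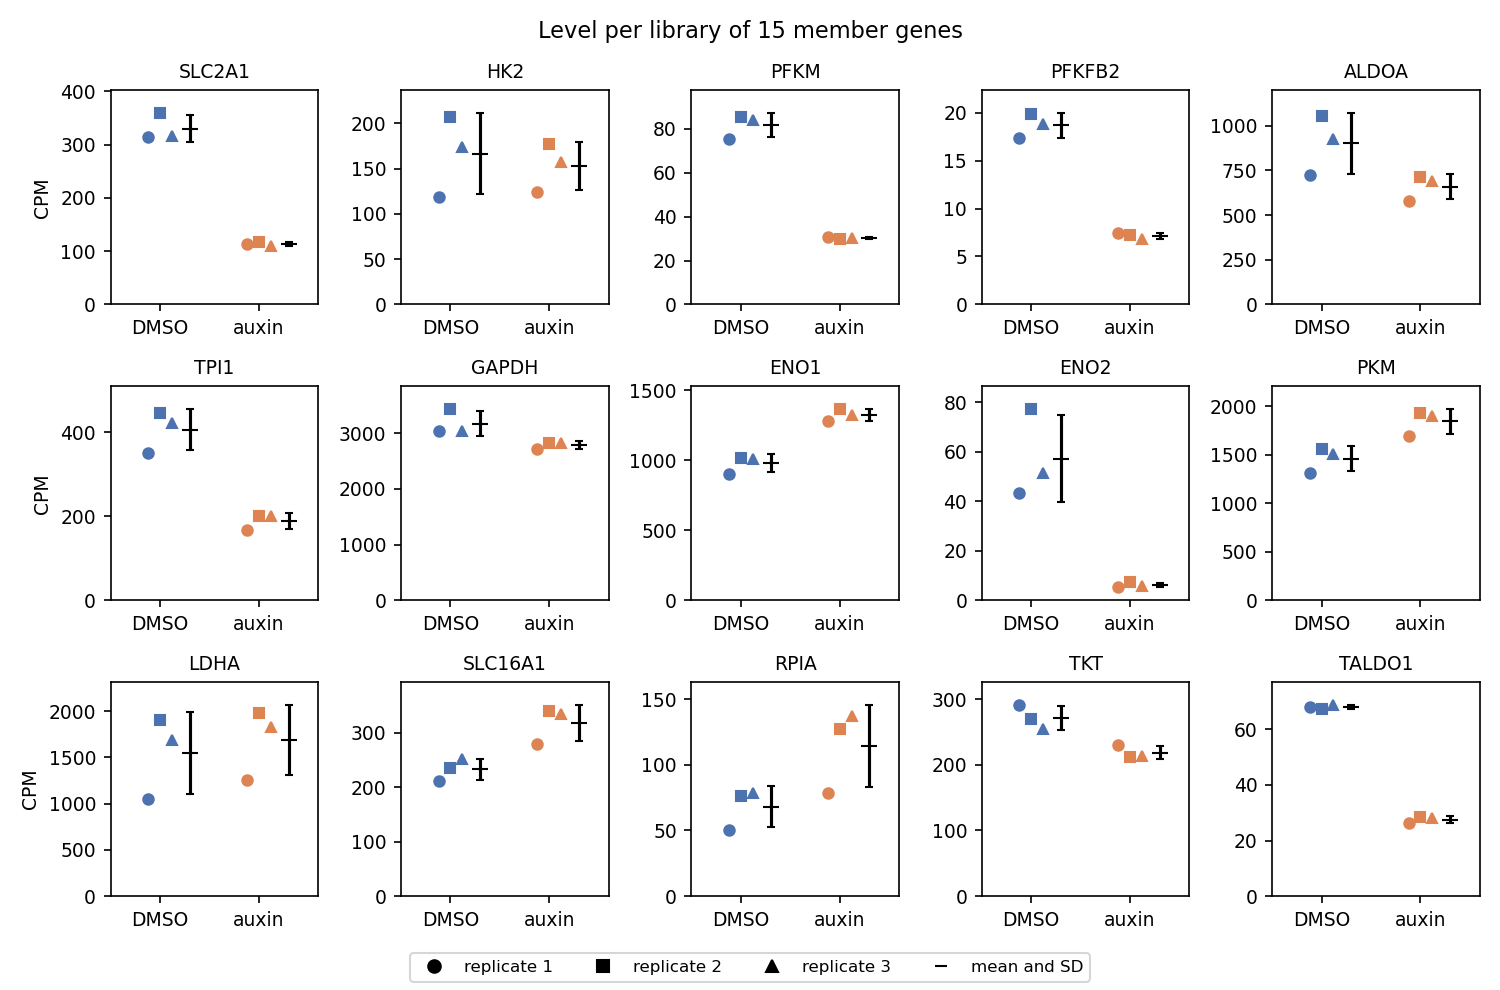
CPM (vertical axes, from 0) of 15 genes in each library, with circles, squares and triangles for replicates 1, 2 and 3 and black bars for the mean and SD (n = 3). SLC2A1, PFKM, PFKFB2, TPI1, ENO2 and TALDO1 separate widely, whereas HK2 and LDHA overlap, with replicate 1 lowest in both groups.

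In lower glycolysis the direction differed between genes of one pathway stretch, and between isozymes of one enzyme. Of 7 genes, ENO1 and PKM were called higher, ENO2 was called lower, and GAPDH, PGK1, PGAM1 and ENO3 were not called. The shares of protein-coding genes were 27.8% called higher and 33.4% called lower. ENO2, the neuron-type enolase that is also made by many tumours (ENSG00000111674.8, chromosome 12, 6913745 to 6923698, plus strand), was at 43.3, 77.2 and 51.3 CPM in DMSO replicates 1, 2 and 3 and 5.44, 7.24 and 5.85 CPM after auxin. Every auxin library was several-fold below every DMSO library. Means were 57.3 ± 17.7 and 6.18 ± 0.94 CPM (SD, n = 3 each), and the log2 fold change was -3.21 with SE 0.24 and adjusted p 4.20e-05 (9.28-fold lower in the fit), the farthest from 0 among the 35 members. ENO2 shares 499 bases on the same strand with LRRC23, which has 5.62% of its CPM. ENO1, the general enolase (ENSG00000074800.15, chromosome 1, 8861000 to 8879250, minus strand), was at 905, 1018 and 1011 CPM in DMSO replicates 1, 2 and 3 and 1277, 1364 and 1322 CPM after auxin. All auxin libraries were above all DMSO libraries. The log2 fold change of ENO1 was 0.43 with SE 0.073 and adjusted p 0.00214. It kept its direction in all 18 alternatives, but its call was lost in limma-trend fits on log2(TPM + 1) and log2(TPM + 0.1), where the adjusted p was at most 0.184.

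ENO1 and ENO2 encode interchangeable subunits of one dimeric enzyme, so their mixture was also compared. ENO2 took 3.75, 5.23 and 3.66% of enolase TPM in DMSO replicates 1, 2 and 3 and 0.588, 0.517 and 0.437% after auxin. The groups did not overlap. ENO1 went from 95.4% ± 0.85 to 99.2% ± 0.16 of enolase TPM (n = 3 each, SD). ENO3, the muscle enolase, was at 1.51 and 1.74 CPM, with a log2 fold change of 0.21 (adjusted p 0.503) and 0.66 (adjusted p 0.0131) with GC-corrected offsets. ENO3 shares 970 bases on the opposite strand with PFN1, which has 48832% of its CPM, so its value is uncertain, and it was below 0 without auxin replicate 1.

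GAPDH, the dehydrogenase that first makes NADH in glycolysis and a common reference gene (ENSG00000111640.14, chromosome 12, 6533927 to 6538374, plus strand), was at 3043, 3427 and 3028 CPM in DMSO replicates 1, 2 and 3 and 2709.9, 2815 and 2829.6 CPM after auxin. The auxin libraries were all lower, by a margin smaller than the range within DMSO. For GAPDH the log2 fold change was -0.19 with SE 0.077 and adjusted p 0.0803. With the block the adjusted p was 0.00298, and with GC-corrected offsets the log2 fold change was 0.13 (adjusted p 0.328), of the opposite sign. With both, GAPDH was called higher, at 0.13 (adjusted p 0.00892). PGK1, which makes the first ATP, was at 0.12 (adjusted p 0.485), reached an adjusted p of 0.0213 with the block, and had values below 0 on the TPM scale and with GC-corrected offsets. PGAM1, the mutase that follows, was at -0.057 (adjusted p 0.537) and at 0.065 with upper-quartile scaling.

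Pyruvate kinase makes the last ATP of the pathway, and its PKM gene (ENSG00000067225.17, chromosome 15, 72199029 to 72231822, minus strand) was at 1312, 1557 and 1513 CPM in DMSO replicates 1, 2 and 3 and 1699.8, 1929 and 1906 CPM after auxin. The lowest auxin library was above the highest DMSO library. Means were 1461 ± 131 and 1845 ± 126 CPM (SD, n = 3 each), and the log2 fold change was 0.34 with SE 0.092 and adjusted p 0.0186. The call was lost without DMSO replicate 1, auxin replicate 2 or auxin replicate 3 and in the limma-trend fits on TPM, with an adjusted p of up to 0.550, and the direction was the same in all 18 alternatives.

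PKM messages carry 1 of 2 exons of equal length that are spliced in place of each other. The M1 exon gives the constitutively active enzyme of muscle and brain, and the M2 exon gives the regulated enzyme of embryonic and tumour cells. Both exons are coding, 167 bases long and on the minus strand of GRCh38, the M1 exon at chr15:72203022-72203188 and the M2 exon at chr15:72202454-72202620. They are shown 5′ to 3′ because the comparison below turns on the 62 positions at which they differ, printed in capitals, and the 105 they share (62.9% identity).
PKM M1 exon: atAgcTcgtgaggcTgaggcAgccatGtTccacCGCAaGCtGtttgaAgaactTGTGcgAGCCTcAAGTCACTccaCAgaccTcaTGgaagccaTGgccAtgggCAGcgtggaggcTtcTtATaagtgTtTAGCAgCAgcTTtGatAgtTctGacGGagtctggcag
PKM M2 exon: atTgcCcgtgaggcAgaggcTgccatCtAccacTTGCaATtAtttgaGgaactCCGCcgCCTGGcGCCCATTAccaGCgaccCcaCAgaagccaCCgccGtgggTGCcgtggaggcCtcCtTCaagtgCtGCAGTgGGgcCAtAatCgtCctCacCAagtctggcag

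The M1 exon was present in 6 and the M2 exon in 4 annotated transcripts, which together took 57.3 to 62.4% of the gene's TPM per library. The M1 share of the TPM of transcripts with either exon was 13.0, 9.69 and 9.38% in DMSO replicates 1, 2 and 3 and 12.4, 9.41 and 9.93% after auxin. The groups overlapped, and replicate 1 was the highest of both. The means were 10.7% ± 2.0 and 10.6% ± 1.6 (n = 3 each, SD), a difference of -0.11 percentage points (two-sided exact permutation p 0.9 over 20 label assignments, with 0.1 the smallest p possible). With the pairs kept, the exact sign-flip permutation p was 0.75. M2 messages were the larger part in each library.

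Most of the M1 value came from 1 short gene model. PKM-222, a coding transcript of 8 exons, took 7.07, 5.04 and 5.35% of PKM TPM in DMSO and 6.99, 5.01 and 5.42% after auxin. An alternative chosen after the data were seen counted only transcripts of at least 10 exons. Its M1 share was 0.899, 0.979 and 0.891% in DMSO and 1.14, 1.09 and 1.09% after auxin. These groups did not overlap, and the difference of 0.18 percentage points had the smallest p that the test can give (two-sided exact permutation p 0.1). The 11-exon M1 transcript PKM-216 was called higher, with a log2 fold change of 0.66 (SE of 0.13 and adjusted p of 0.0160). It took 0.360, 0.370 and 0.370% of PKM TPM in DMSO and 0.471, 0.460 and 0.456% after auxin. How reads were divided between PKM-222 and the longer models rests on the authors' estimate.

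**Figure D3:**
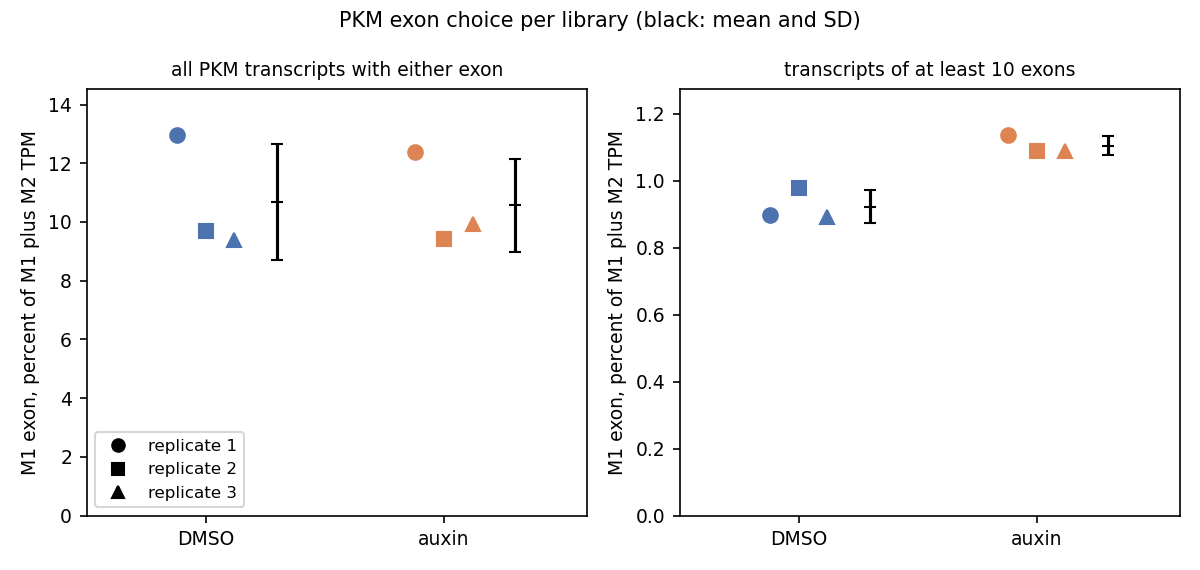
Share of the M1 exon (percent of the TPM of PKM transcripts with the M1 or the M2 exon, vertical axes from 0) in each library, with black bars for the mean and SD (n = 3). With all transcripts the groups overlap at 9.38 to 13.0%, and with transcripts of at least 10 exons the 3 auxin libraries at 1.09 to 1.14% lie above the DMSO libraries at 0.891 to 0.979%.

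The leading PKM transcript was PKM-202, which has 11 exons and the M2 exon. It took 47.8, 50.1 and 54.5% of PKM TPM in DMSO and 51.5, 52.3 and 52.6% after auxin, with overlap. PKM-210, a coding model of 5 exons and 554 bases with neither exon, took 37.2, 30.3 and 26.8% and 34.1, 28.6 and 28.4%. PKM-211, annotated as a retained intron, took 1.59, 10.0 and 8.45% and 1.16, 9.56 and 8.26%. It was lowest in replicate 1 of both groups. None of PKM-202, PKM-210, PKM-211 and PKM-222 was called, and their log2 fold changes ran from 0.25 to 0.36.

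Genes known to act on this exon choice were read in the same libraries. Of 6 such genes tested, 3 were called lower and 1 higher, beside 26.9% and 25.4% of all genes and 33.4% and 27.8% of protein-coding genes. PTBP1, whose protein represses the M1 exon, was at 417, 361 and 381 CPM in the DMSO libraries and 92.0, 76.1 and 78.9 CPM in the auxin libraries. The groups were far apart, and the log2 fold change was -2.23 (adjusted p 5.48e-06). HNRNPA1, which acts with PTBP1, was at -0.48 (adjusted p 0.0491) with overlapping groups and an adjusted p of up to 0.131 among the alternatives, and NEK2, a kinase reported to act with it, at -0.90 (adjusted p 0.00164). RBM4, whose protein favours the M1 exon, was at 0.89 (adjusted p 1.21e-05). HNRNPA2B1 and SRSF3 were not called, and with the block or with GC-corrected offsets the list held 1 higher and 5 lower, where the shares of all genes were 35.5% and 34.4% with the block and 27.3% and 26.6% with the offsets.

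ALDOA has several first exons, and its leading transcript was ALDOA-221 (9 exons, coding). It took 55.2, 41.0 and 41.2% of ALDOA TPM in DMSO and 54.7, 40.1 and 39.9% after auxin. The groups overlapped (two-sided exact permutation p 0.5), with replicate 1 apart from the others in both. Within same-numbered pairs the share was lower after auxin in 3 of 3, a mean difference of -0.87 percentage points (two-sided exact sign-flip permutation p 0.25, the smallest that 3 pairs allow). ALDOA-214, annotated as a retained intron, took 13.2, 32.1 and 33.1% and 15.2, 34.4 and 31.3%, with replicate 1 apart in the same way. ALDOA-221 was called lower at -0.47 (SE of 0.090 and adjusted p of 0.0166), and so was the non-coding ALDOA-213 at -0.79 (SE of 0.15 and adjusted p of 0.0160). ALDOA-206 and ALDOA-203, the other transcripts of at least 5% of the gene, were not called, nor was ALDOA-214. ALDOA-219, at under 1% of the gene, was called higher at 1.87 (SE of 0.17 and adjusted p of 0.00127), with a share of 0.156, 0.119 and 0.133% in DMSO and 0.924, 0.606 and 0.537% after auxin. ALDOA shares 6257 bases on the same strand with the coding gene AC093512.2, which held 4.24% of its CPM.

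The lactate genes split between transporters. SLC16A1 encodes MCT1, which imports or exports lactate, and SLC16A3 encodes MCT4, an exporter of highly glycolytic cells. SLC16A1 (ENSG00000155380.11, chromosome 1, 112911847 to 112957013, minus strand) was at 212, 236 and 251 CPM in DMSO replicates 1, 2 and 3 and 280.5, 339.9 and 335 CPM after auxin. All auxin libraries were above all DMSO libraries, with a log2 fold change of 0.45 with SE 0.099 and adjusted p 0.00741. The call was lost in the limma-trend fits on TPM, with an adjusted p of up to 0.213. SLC16A3 (ENSG00000141526.16, chromosome 17, 82228397 to 82261129, plus strand) was at 66.4, 88.3 and 82.2 CPM in DMSO replicates 1, 2 and 3 and 47.7, 52.7 and 52.6 CPM after auxin. Here the auxin libraries were the lower ones, with a log2 fold change of -0.63 with SE 0.11 and adjusted p 0.00227 that turned to 0.23 (adjusted p 0.427) with GC-corrected offsets and to a call as higher, 0.25 (adjusted p 1.56e-04), with the block added to them. SLC16A1 took 60.9, 55.8 and 59.0% of the TPM of both in DMSO and 72.6, 74.3 and 74.6% after auxin, without overlap. With GC-corrected offsets the 2 genes had log2 fold changes of 0.33 and 0.23, so that the contrast between them was small there. SLC16A3 also shares 22107 bases with CSNK1D on the opposite strand. CSNK1D had 192% of its CPM and a log2 fold change of -0.40, and the part of CSNK1D reads in this result was not tested.

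Lactate dehydrogenase interconverts pyruvate and lactate, with LDHA the form typical of muscle and tumours and LDHB that of heart. LDHA (ENSG00000134333.13, chromosome 11, 18394388 to 18408425, plus strand) was at 1049, 1904 and 1687 CPM in DMSO replicates 1, 2 and 3 and 1259, 1978 and 1829 CPM after auxin. Replicate 1 was far below the others in both groups, and the groups overlapped. LDHA had a log2 fold change of 0.13 with SE 0.25 and adjusted p 0.701. Within same-numbered pairs auxin was higher in 3 of 3, and with the block the adjusted p was 0.0143, but the value was below 0 on the TPM scale, with GC-corrected offsets, and without DMSO replicate 1 or auxin replicate 2. The pairing of replicates 2 and 3 is uncertain, and LDHA in DMSO replicate 2 (1904 CPM) lay above auxin replicate 3 (1829 CPM). LDHB was at 0.25 (adjusted p 0.265) and reached an adjusted p of 8.80e-05 with the block. LDHA took 54.9% ± 2.22 of LDH TPM in DMSO and 52.6% ± 1.78 after auxin (n = 3 each, SD), with overlap.

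**Figure D4:**
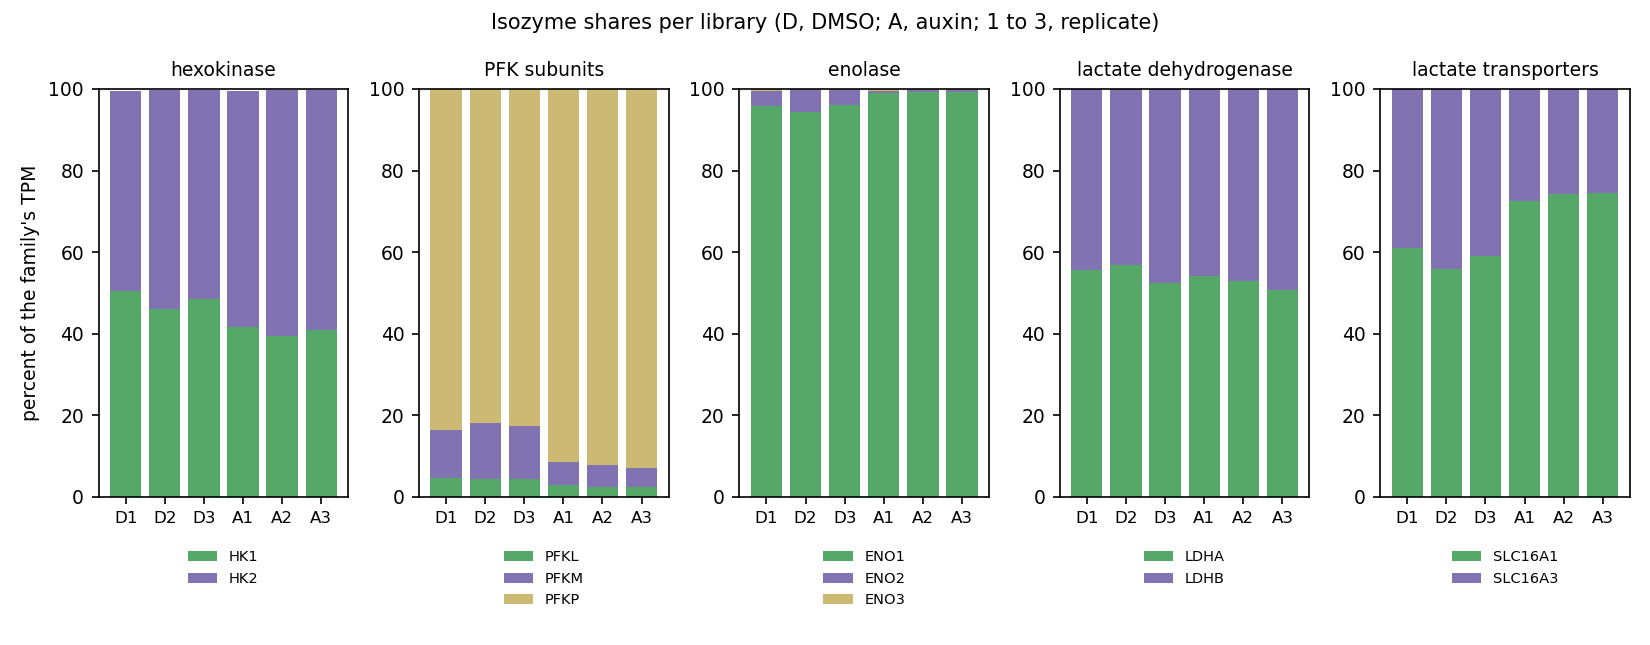
Share of each isozyme gene in the TPM of its family (stacked bars, percent) in the 3 DMSO (D1 to D3) and 3 auxin libraries (A1 to A3). PFKP, HK2, ENO1 and SLC16A1 take a larger share in every auxin library, and LDHA and LDHB overlap between groups.

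At the entry of pyruvate into the mitochondrion, none of the 3 members was called, where 52.3% of all genes were. PDHA1, the catalytic alpha subunit of pyruvate dehydrogenase, was at 0.41 (adjusted p 0.0509), PDHB, the beta subunit, at -0.44 (adjusted p 0.0600), and PDK1, the kinase that inhibits the complex, at 0.31 (adjusted p 0.343). All 3 passed the threshold with the replicate block, PDHA1 (adjusted p 2.44e-05) and PDK1 (1.31e-04) as higher and PDHB (0.00111) as lower, although PDHA1 was at -0.056 on the log2(TPM + 1) scale. Of 11 other genes of this step, 1 was called higher and 3 lower, where 25.4% and 26.9% of all genes and 27.8% and 33.4% of protein-coding genes were. The median log2 fold change of the 11 was -0.24. With the block the numbers were 3 and 5, beside 35.5% and 34.4% of all genes. PDK2, a second inhibitory kinase, was at -2.02 (adjusted p 3.94e-06), DLAT, the E2 subunit of the complex, at -0.66 (adjusted p 1.37e-04), and MPC2, a subunit of the mitochondrial pyruvate carrier, at -0.41 (adjusted p 0.0402). PDP2, a phosphatase that reactivates the complex, was at 0.80 (adjusted p 5.58e-05). PDK1 took 24.7, 28.7 and 25.5% of the TPM of PDK1 to PDK4 in DMSO and 44.3, 48.3 and 44.2% after auxin. The groups did not overlap, and PDK1 replaced PDK2 as the leading kinase gene.

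The pentose phosphate genes moved in both directions. Of 6 members, RPIA and PGLS were called higher, TALDO1 and TKT lower, the last with 0.24 under GC-corrected offsets, and PGD and RPE were not called. Among protein-coding genes 27.8% were called higher and 33.4% lower. TALDO1, the transaldolase (ENSG00000177156.10, chromosome 11, 747329 to 765024, plus strand), was at 68.0, 67.3 and 68.8 CPM in DMSO replicates 1, 2 and 3 and 26.2, 28.4 and 28.0 CPM after auxin. Libraries within a group were nearly equal, and the groups were far apart. Means were 68.0 ± 0.7 and 27.6 ± 1.2 CPM (SD, n = 3 each), with a log2 fold change of -1.30 with SE 0.055 and adjusted p 4.61e-06. Transketolase, its partner in the non-oxidative branch, is encoded by TKT (ENSG00000163931.15, chromosome 3, 53224707 to 53256052, minus strand). It was at 291, 269 and 255 CPM in DMSO replicates 1, 2 and 3 and 230.1, 212 and 214 CPM after auxin. The groups did not overlap, and the log2 fold change was -0.31 with SE 0.071 and adjusted p 0.00843, but with GC-corrected offsets TKT was called higher, at 0.24 (adjusted p 0.0141). It was not called with upper-quartile factors (adjusted p 0.0853) or on log2(TPM + 1) (adjusted p 0.330) and log2(TPM + 0.1). RPIA, the isomerase that yields ribose 5-phosphate (ENSG00000153574.8, chromosome 2, 88691644 to 88750935, plus strand), was at 50.1, 75.8 and 78.1 CPM in DMSO replicates 1, 2 and 3 and 78.3, 127 and 137 CPM after auxin. Replicate 1 was the lowest of both groups, and auxin replicate 1 was barely above the highest DMSO library. The log2 fold change was 0.75 with SE 0.24 and adjusted p 0.0365, and the call was lost with GC-corrected offsets (adjusted p 0.0780) and without DMSO replicate 1, DMSO replicate 2, auxin replicate 2 or auxin replicate 3.

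PGLS, the lactonase of the oxidative branch, was at 0.27 (adjusted p 0.0454), the highest p among the called members, and at 1.15 (adjusted p 7.18e-05) with GC-corrected offsets. Its call was lost on library size alone, with genes of at least 1 count, on the TPM scales and without DMSO replicate 2, DMSO replicate 3, auxin replicate 1 or auxin replicate 3. PGD, the second dehydrogenase that makes NADPH, was at -0.013 (adjusted p 0.954), with either sign among the alternatives. RPE, the epimerase, was at 0.18 (adjusted p 0.220), reached an adjusted p of 4.72e-04 with the block, and was slightly below 0 on the TPM scales.

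Within the genes, transcripts of different structure differed. Of 453 annotated member transcripts, 284 were tested, and 35 (12.3%) were called lower and 18 (6.34%) higher, at backgrounds of 11.2% and 8.43% (19.7% in either direction) over 83072 transcripts. With the block 45 were lower and 34 higher, at backgrounds of 14.1% and 12.8%. Of the 112 transcripts that held at least 5% of their gene in any library, 105 were tested, and 25 were called lower and 7 higher. Among the 51511 tested transcripts of that kind in all tested genes, 15% were called lower and 11% higher. There were 10 transcripts called against the direction of their gene's call, in ALDOA, GPI, PFKL, SLC16A3 and TKT. The like number over all genes was not counted, so whether 10 is many or few is not known here.

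Transcripts annotated as retained introns took a larger share of several members after auxin. Of 27 members with such a transcript, the share was higher without overlap in 10, lower without overlap in 0, and overlapping in 17. Among the 7964 tested genes with such a transcript, 20.4% had a higher and 6.68% a lower share without overlap. The widest gap was in PFKM, at 13.2, 7.77 and 6.77% of the gene's TPM in DMSO and 52.8, 31.0 and 31.2% after auxin. The coding transcripts of PFKM were at 30.2, 26.7 and 27.2 TPM in DMSO and 5.97, 6.89 and 6.71 TPM after auxin, and its retained-intron transcripts at 4.67, 2.28 and 1.99 TPM and 7.53, 3.25 and 3.19 TPM. The coding part was lower without overlap, and the retained-intron part overlapped in TPM, with replicate 1 highest in both groups. PFKM shares 1170 bases on the opposite strand with SENP1, at 67.4% of its CPM, and the part of SENP1 reads was not tested.

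Mean shares of retained-intron transcripts also moved from 35.1 to 44.8% in ENO3, 4.33 to 11.6% in PFKL, 4.01 to 8.99% in SLC16A3, 1.99 to 6.68% in PDHB, 0.919 to 3.59% in TALDO1, 1.90 to 4.06% in SLC2A1, 3.26 to 5.09% in PFKFB4, 0.432 to 1.75% in PFKFB3 and 0.202 to 0.538% in GAPDH. In TPM, the retained-intron transcripts of these 10 genes were higher without overlap in PDHB, PFKFB3 and GAPDH and lower without overlap in PFKFB4, from a mean of 0.30 to 0.18 TPM, and they overlapped in the other 6. The mean in SLC2A1 went from 2.24 to 1.52 TPM. Some large shares overlapped, as in TPI1, where a 2-exon model annotated as a retained intron took 53.2 to 60.4% of TPM across all libraries. The label describes the annotated model, and for short models that share exons with coding transcripts it does not show that an intron was kept in the sequenced RNA. Transcripts annotated as targets of nonsense-mediated decay held 47.1 to 53.9% of TKT TPM and 40.7 to 48.7% of SLC2A1 TPM across the libraries. Coding transcripts held 6.86 to 28.6% of TKT TPM. Such transcripts were also far from all of the TPM in some other members. They held 39.6 to 46.8% in TPI1, 38.3 to 53.3% in PDHA1, 49.9 to 63.1% in PGK1 and 25.6 to 45.7% in ENO3. The gene values of these members, as those of TKT and SLC2A1, thus do not describe coding transcripts alone.

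**Figure D5:**
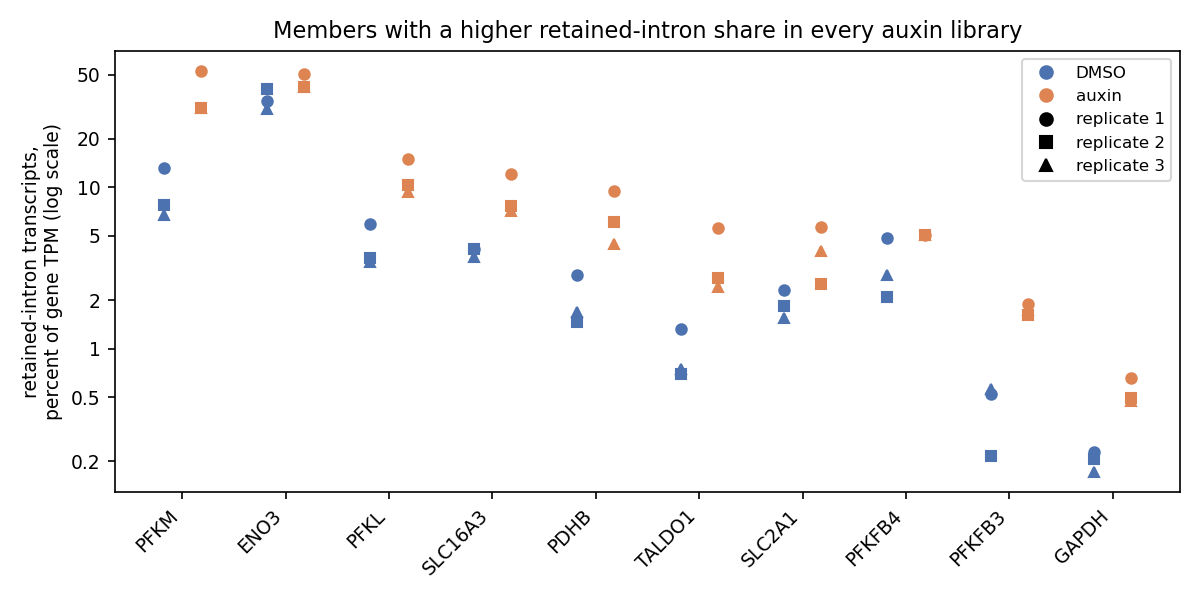
Share of transcripts annotated as retained introns in the gene's TPM (percent, log scale) for the 10 members in which every auxin library was above every DMSO library, with circles, squares and triangles for replicates 1, 2 and 3. PFKM has the widest gap, from 6.77 to 13.2% in DMSO to 31.0 to 52.8% after auxin.

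Other transcripts differed in share with no such label. PDHB-201, the coding transcript of 10 exons, took 88.9, 90.6 and 86.6% of PDHB TPM in DMSO and 47.4, 55.9 and 68.0% after auxin, while PDHB-202, a coding transcript of 9 exons, took 6.87, 6.92 and 10.9% and 40.4, 37.9 and 26.7%. Both shifts were without overlap, at log2 fold changes of -1.04 (SE of 0.27 and adjusted p of 0.0415) and 1.62 (SE of 0.37 and adjusted p of 0.0297). SLC16A3-206, a short coding model of 3 exons, took 1.13, 0.713 and 0.476% of SLC16A3 in DMSO and 19.6, 15.3 and 13.7% after auxin, with a log2 fold change of 3.89 (SE of 0.30 and adjusted p of 7.81e-04) against the fall of its gene, which itself turns with GC-corrected offsets. On the same strand SLC16A3 shares 822 bases with AC132872.3 and 2778 with AC132872.4. These had log2 fold changes of 2.05 and 1.70, at 0.554% and 2.92% of the CPM of SLC16A3. The part of their reads in SLC16A3-206 was not tested. ENO2-201, the main ENO2 transcript of 12 exons, took 62.6, 58.5 and 60.1% of ENO2 in DMSO and 21.7, 29.4 and 24.9% after auxin, and its own log2 fold change was -3.90 (SE of 0.27 and adjusted p of 5.50e-04). The GAPDH transcript ENST00000396859.5 was called lower at -0.25 (SE of 0.062 and adjusted p of 0.0399) although its gene was not called. These transcripts were chosen after their values were seen.

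Many genes of glycolysis carry the letters ACGTG near their start, the core that hypoxia-inducible factors bind. Promoter sequences from RefSeq (GRCh38.p14) matched 32 of the 35 members, and the 250 bases before each start were searched on both strands. A single start per gene was used, and most windows overlap an annotated exon. Some, as for GPI, ENO2 and GAPDH, lie inside the annotated gene. Whether these starts are the ones used in these cells was not tested. ACGTG was found in 10 of 32, or 31.3%, against 18.7% of 27305 promoters of the same length and 22.9% of those of protein-coding genes tested. It was found in 3 of 13 members called lower (ALDOA, ENO2 and GPI), in 0 of 4 called higher and in 7 of 15 not called. The longer E-box CACGTG, which holds ACGTG, was found in ALDOC, GAPDH, LDHA and PDHB, or 4 of 32. It was found in 6.49% of all promoters and 8.73% of those of protein-coding genes tested. The match nearest to the start is shown for the 3 lower members and for HK2, GAPDH and LDHA, 25 bases each and 5′ to 3′ on the gene's strand, with the motif or its reverse complement CACGT in capitals, so that lower members and those not called can be set side by side.
ALDOA chr16:30064091-30064115, plus strand: ttcccctccaCACGTcaacgattct
ENO2 chr12:6914452-6914476, plus strand: ccgcgctcgtACGTGcgcctccgcc
GPI chr19:34364820-34364844, plus strand: actgcctgtaACGTGgaaggtgttc
HK2 chr2:74834069-74834093, plus strand: tgggcgtgcgCACGTcactgatccg
GAPDH chr12:6535174-6535198, plus strand: ctgcggggtcACGTGtcgcagagga
LDHA chr11:18394480-18394504, plus strand: tgggttcccgCACGTccgccggccc
A match describes letters in the window only. Binding was not measured in these libraries.

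Among factors known to act on glycolytic transcription, 13 of 14 listed genes were tested. Of these, 2 were called higher and 5 lower, beside 25.4% and 26.9% of all genes and 27.8% and 33.4% of protein-coding genes. The median log2 fold change of the 13 was -0.14. MYC, which activates many glycolytic genes, was at 162, 173 and 167 CPM in the DMSO libraries and 386, 411 and 411 CPM in the auxin libraries. The log2 fold change of MYC was 1.27 (adjusted p 7.48e-06). MLXIPL, the glucose-sensing factor ChREBP, was at -3.06 (adjusted p 1.70e-04), and its partner MLX at -0.86 (adjusted p 8.41e-05). The other gene called higher was HIF1A, the oxygen-regulated subunit of HIF-1, at 0.53 (adjusted p 8.79e-04), and its partner ARNT was at -0.53 (adjusted p 1.39e-04), with adjusted p of up to 0.177 and 0.0560 among the alternatives. HIF1A and ARNT were added after their values were seen. ESRRA, a nuclear receptor that acts on energy metabolism, was at -0.82 (adjusted p 2.44e-04) but at -0.0072 with GC-corrected offsets. TXNIP, the fourteenth gene, was listed at 0 counts in all 6 libraries, and whether this is a failed estimate or a lack of its RNA was not tested.

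Targets of hypoxia-inducible factors outside glycolysis included 19 tested genes, with 1 called higher, 5 lower and a median log2 fold change of -0.25. Backgrounds were 25.4% and 26.9% over all genes and 27.8% and 33.4% over protein-coding genes. With the block 3 were higher and 9 lower, at 35.5% and 34.4% of all genes. LOXL2, a lysyl oxidase, was at -1.70 (adjusted p 1.48e-04), P4HA2, a collagen prolyl hydroxylase, at -1.37 (adjusted p 3.46e-04), and BNIP3, a mitophagy receptor, at -0.83 (adjusted p 0.0127). CA12, a carbonic anhydrase, was the one that rose, at 1.36 (adjusted p 7.50e-05).

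Of the other genes of glycolysis, pentose phosphate metabolism and gluconeogenesis, 31 of 46 were tested. Of these, 17 were called lower and 6 higher, beside 26.9% and 25.4% of all genes and 33.4% and 27.8% of protein-coding genes. The median log2 fold change of the 31 was -0.22. With GC-corrected offsets 15 were lower and 7 higher (26.6% and 27.3% of all genes), and with the block 18 and 10 (34.4% and 35.5%). GPD1, glycerol 3-phosphate dehydrogenase, was at -2.63 (adjusted p 3.61e-05), SLC2A6, a lesser-known glucose transporter, at -2.22 (adjusted p 3.14e-04), and PC, pyruvate carboxylase, at -1.78 (adjusted p 3.71e-04). FBP1, which reverses the phosphofructokinase step, was at 2.05 (adjusted p 0.00772), though at only 0.0342 CPM with DMSO and 0.142 CPM with auxin. GPD1 was low as well, at 0.519 and 0.0832 CPM.

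The GC content of a gene was the TPM-weighted mean over its transcripts. Its median was 54.2% in the 5 members called higher, 55.8% in the 14 called lower and 49.1% in the 16 not called. Among protein-coding genes with the same calls the medians were 46.5, 56.0 and 47.8%. Across the members, the log2 fold change had r 0.11 and rho 0.10 with log2(DMSO TPM + 1), and r 0.14 and rho 0.13 with the log2 genomic span (n = 35 genes, which share the 6 libraries).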

How the data were processed

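RNA-seq of HCT116 was deposited as gene and transcript tables, 1 pair for each of 6 libraries. Per the file headers, the authors give an expected count, which estimates reads and can be fractional, and TPM, an abundance scaled by transcript length, both with posterior estimates. Per the submitters' processing notes, bcl2fastq 2.20, STAR and DESeq2 were used with GRCh38 (hg38). The counter, the annotation and the strand setting are not given in the sources used here. Per the labels, RNA was depleted of ribosomal RNA and libraries were stranded and paired-end. All 58780 human gene IDs and 206761 transcript IDs matched GENCODE release 29. The 746 other rows held at most 0.00111% of counts and were left out.

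Deposited expected counts were rounded and tested with edgeR 4.0.16 in R 4.3.3 (filterByExpr, TMM, glmQLFit and glmQLFTest, Benjamini-Hochberg over all features), group only. SEs were derived from the F statistic. Alternatives were the replicate block, GC-corrected offsets, DESeq2 1.42.0, limma-trend 3.58.1 on log2(TPM + 1) and log2(TPM + 0.1), other scaling factors and filters, replicates 2 and 3 only, and each library left out. The offsets came from a lowess (span 0.3) over each gene's GC content, the mean of its transcripts weighted by mean TPM over all libraries. TMM factors from protein-coding genes only, the PKM share over long transcripts, and replicates 2 and 3 only for transcripts and shares, were added after seeing the data. Shares per gene were compared by two-sided exact permutation over 20 assignments.

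Deviations from group means of same-numbered libraries correlated at 0.65, 0.27 and 0.28, all over 0.1, and the label numbers were taken to pair the libraries. DMSO replicate 3 with auxin replicate 2 reached 0.31 and DMSO replicate 2 with auxin replicate 3 0.18, so that replicates 2 and 3 were not told apart. Within groups, chi-square statistics between 2 libraries were 38.4 to 613.9 times their degrees of freedom, so none was a copy of another. Counts of members ran from 38 to 1832279 per library, and the posterior SD was at most 0.073% of a member's count. On simulated data over 19461 genes, of which 196 were changed, 24.5% of 1.5-fold and 55.1% of 2-fold changes were recovered. Of those calls, 9.30% were unchanged genes. On simulated data over 79456 transcripts, of which 186 were changed, 12.5% of 4-fold and 62.2% of 16-fold changes were recovered. Of those calls, 9.33% were unchanged transcripts. In the measured data 52.3% of genes and 19.7% of transcripts were called. The adjusted p depends on the share of changed features, so these recovery rates cannot be carried over to the measured data. Members were named in full by rule (up to 3 called per role with the largest change, and SLC2A1, HK2, GAPDH, PKM, LDHA, ALDOA and TKT), and of other lists up to 4 called genes. The members and lists were chosen with earlier results of these data known.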

Additional observations from a re-analysis of the deposited data

How the results depend on the processing

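The number of members called higher was the least stable value. Against 5, it was 8 with upper-quartile factors, 1 on log2(TPM + 1), 1 on log2(TPM + 0.1), 12 with the replicate block, 15 with the block and GC-corrected offsets, 9 with replicates 2 and 3 only, and 2 to 5 with 1 library left out (3 without DMSO replicate 1, DMSO replicate 2 or auxin replicate 2, and 2 without auxin replicate 3). Against 14 called lower it was 9 with GC-corrected offsets and 12 to 15 with 1 library left out. Member transcripts called higher, 18, numbered 30 with upper-quartile factors, 34 with the block and 7 to 15 with 1 library left out, and those called lower, 35, numbered 21 to 35. The lowest of these were 11, 7 and 8 higher without DMSO replicate 2, auxin replicate 2 and auxin replicate 3, and 22 and 21 lower without DMSO replicates 2 and 3. The other counts of members and their transcripts stayed within 1.5 times. The counts over all genes moved as well, from 5010 higher and 5311 lower in the main fit. Those called higher numbered 6534 with upper-quartile factors, 7005 with the block and 7124 with the block and GC-corrected offsets. They numbered 5914 with replicates 2 and 3 only and 3876 to 4979 with 1 library left out. Those called lower numbered 5239 with GC-corrected offsets and 4493 to 5575 with 1 library left out. Over all genes, log2(TPM + 1) gave 970 higher and 2966 lower and log2(TPM + 0.1) 1017 and 3223. Relative to TMM the median gene moved by 0.12 with upper-quartile factors, -0.089 on library size, -0.14 and -0.15 on the 2 TPM scales and -0.069 with GC-corrected offsets. These log2 fold changes changed sign. With GC-corrected offsets they were 0.062 for PFKL, 0.16 for ALDOA, 0.049 for ALDOC, 0.13 for GAPDH, -0.049 for PGK1, -0.018 for LDHA, 0.23 for SLC16A3, 0.028 for PGD and 0.24 for TKT. With the block added to these offsets they were 0.069 for PFKL, 0.18 for ALDOA, 0.10 for ALDOC, 0.13 for GAPDH, -0.043 for PGK1, -0.0040 for LDHA, 0.25 for SLC16A3, 0.029 for PGD and 0.24 for TKT. With upper-quartile factors they were 0.067 for SLC2A3, 0.065 for PGAM1 and 0.11 for PGD, with the block alone 0.035 for SLC2A3, and with factors from protein-coding genes 0.021 for PGD. On log2(TPM + 1) they were -0.035 for PGK1, -0.028 for LDHA, -0.056 for PDHA1 and -0.0033 for RPE, and on log2(TPM + 0.1) -0.035 for PGK1, -0.028 for LDHA, -0.057 for PDHA1 and -0.0033 for RPE. With 1 library left out the ranges were -0.29 to 0.41 for SLC2A3, -0.32 to 0.043 for HK2, -0.17 to 0.54 for PFKFB1, -0.37 to 0.063 for ALDOC, -0.00084 to 0.21 for PGK1, -0.047 to 0.38 for ENO3, -0.084 to 0.30 for LDHA and -0.15 to 0.12 for PGD. The cause of these shifts was not tested. The block lost no call. For the PKM M1 share and the ALDOA-221 share no exact permutation test of 3 against 3 libraries can pass the threshold, and with 1 library left out their differences ran from -1.01 to 1.04 and from -5.78 to 3.85 percentage points, through 0. At these depths counting error is small for all members except PFKFB1, with as few as 38 counts in a library.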
